A study of Mus musculus with 6 samples.

Results

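The genes described here are 51 components of the transforming growth factor beta (TGF-beta) and bone morphogenetic protein (BMP) pathway, chosen by gene symbol as ligands, receptors, extracellular antagonists and processing enzymes, Smad proteins, Id proteins and latent binding proteins. All 51 are among the 24062 genes of the normalised count table of the Twist2 line, and all 51 passed its filter on low values. A second table, in CPM (reads scaled to a common library size), covers both mouse lines, and 32 of the 51 are among its 4939 genes. The other 19, among them Mstn, Nog, Tgfbr1, Tgfbr2, Smad2, Smad4 and Smad7, have no CPM in the Pax7 line here. Every gene of the CPM table reaches 10 CPM in 3 libraries or more and differs at least 2-fold from unlabelled Twist2-line cells in a deposited comparison, so membership of that table already depends on expression.

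Cells were sorted from freshly dissociated hind-limb muscle of adult C57BL/6 mice by tdTomato, a red fluorescent protein that Cre recombinase switches on permanently. In the Tw2-CreERT2/+;R26-tdTO+ line Cre is made from Twist2, a gene of mesenchymal cells, and in the Pax7-CreERT2/+;R26-tdTO+ line from Pax7, a gene of satellite cells, the stem cells of muscle. All mice of both lines, and so all groups, had 3 tamoxifen treatments, with muscle taken 10 days later. The groups are labelled cells of the Twist2 line (Tw2pos, 2 libraries), unlabelled cells of that line (Tw2neg, 2 libraries), labelled cells of the Pax7 line (Pax7pos, 1 library) and unlabelled cells of the Pax7 line (Pax7neg, 1 library). An unlabelled fraction is a mixture, namely every cell type that did not carry the label. Since the sample descriptions tie no replicate to a separate animal, the p-values reflect the variation of these libraries alone, which may be technical.

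Ligands of this family are secreted dimers that bring type I and type II receptor kinases together on the cell surface. TGF-betas and activins then act mainly through Smad2 and Smad3, and BMPs through Smad1, Smad5 and Smad9, each partnered by Smad4, while Smad6, Smad7 and the decoy receptor Bambi hold the response back. TGF-beta is stored in the extracellular matrix bound to latent TGF-beta binding proteins, and BMPs, activins and myostatin are held off their receptors by secreted antagonists such as noggin, chordin and follistatin. In muscle the pathway is known for fibrosis and matrix production by connective tissue cells, for the limit that myostatin sets on muscle mass, and for control of satellite cell differentiation, in which the Id proteins take part as BMP targets that block myogenic factors.

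The normalised counts rest on 10902318 and 12425426 recovered reads in the Tw2pos libraries and 13205751 and 13005707 reads in the Tw2neg libraries. The CPM table holds 6016469 reads of the Pax7pos library and 7565797 of the Pax7neg library. Twist2 had 99.4 and 222 normalised counts in the Tw2pos libraries, against 22.0 and 23.2 in the Tw2neg libraries, and Pax7 had 303 CPM in Pax7pos, against 0.402 CPM in Pax7neg. Markers of fibro-adipogenic progenitors, the connective tissue cells of muscle, summed to 1060118.7 and 1299135 normalised counts in the Tw2pos libraries, against 282713.5 and 197781.5 in the Tw2neg libraries, with 6 of 8 markers higher and 0 lower. Of 8 satellite cell markers 1 was higher and 3 were lower. Their sums nevertheless lay higher in Tw2pos, at 8205 and 8389.5 normalised counts, against 5806 and 3145.5 in Tw2neg. Pax7, on that list, had 150.4 and 89.25 in Tw2pos, against 569.2 and 185.5 in Tw2neg, and did not pass (limma adjusted p = 0.0803). Tendon markers were higher for 6 of 6. Markers of blood cells and endothelium went the other way, with 7 of 7 macrophage and monocyte, 6 of 6 neutrophil, 5 of 5 B cell, 5 of 5 T cell and 6 of 8 endothelial markers lower in Tw2pos, and no marker of these lists was at 0 in either group. Of 6 pericyte markers 1 was higher and none lower, with sums of 13061 and 10056 in Tw2pos, against 9976 and 3082 in Tw2neg, and of 5 Schwann cell markers none was higher and 4 were lower. Of the 8 satellite cell markers 6 are in the CPM table, and these summed to 3696 CPM in Pax7pos, against 227 CPM in Pax7neg. The 8 markers of fibro-adipogenic progenitors summed to 3163 CPM in Pax7pos, against 45982 CPM in Pax7neg. In sorted bulk samples such as these, fewer cells of a type and less RNA per cell cannot be told apart.

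**Figure D1:**
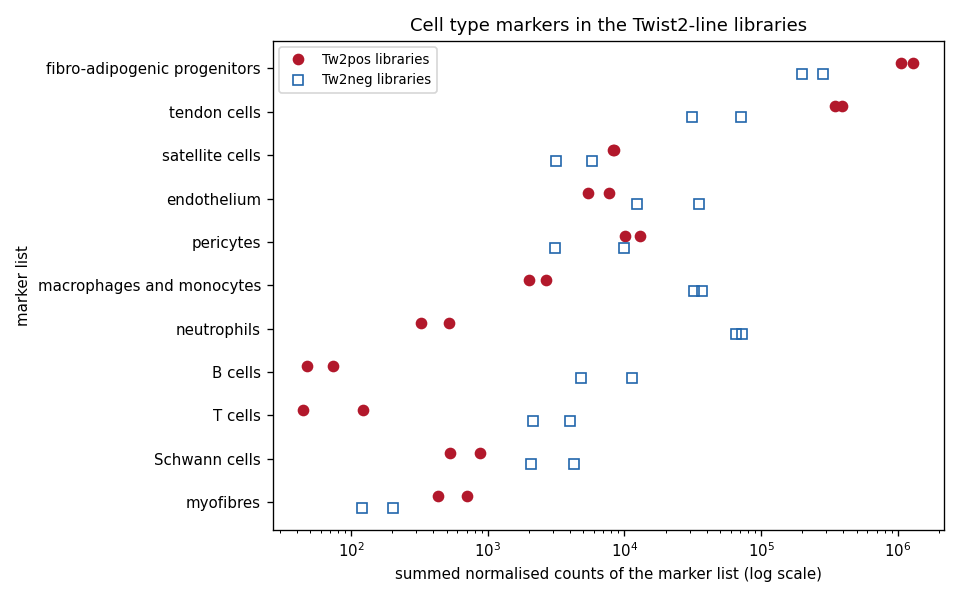
Summed normalised counts (log scale) of 11 lists of cell type markers, with the 2 Tw2pos libraries as filled circles and the 2 Tw2neg libraries as open squares. The sums of fibro-adipogenic progenitor and tendon markers lie higher in both Tw2pos libraries, and those of macrophages, neutrophils, B cells and T cells lie higher in both Tw2neg libraries.

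Most of the pathway stood higher in the Twist2-labelled cells than in the unlabelled cells of the same muscle. Of the 51 genes, 31 rose in Tw2pos, 1 fell and 19 did not pass the test (limma, adjusted p under 0.05 over 14155 genes). Of all genes tested 38.6% passed, 18.7% as higher and 20.0% as lower. The median log2 fold change was 1.42 over the 51 genes and −0.04 over all genes. In 37 of the 51 both Tw2pos libraries lay above both Tw2neg libraries, in 6 both lay below, and in 8 the groups overlapped; of all genes tested 37.1% lay above, 39.2% below and so 76.3% apart either way. By role, all 4 latent binding proteins, 7 of 9 antagonists and processing genes, 8 of 11 receptors, 6 of 12 BMP, GDF and activin ligands, 2 of 4 Id genes, 2 of 3 TGF-betas and 2 of 8 Smad genes rose. Fold changes given in parentheses below are on the log2 (normalised count + 1) scale in the Twist2 line and on the log2 (CPM + 1) scale across both lines, each with the SE of the fit. With libraries scaled by their total reads instead, the median of all genes moved to −0.49, and 25 members passed as higher and 6 as lower. Without Tw2pos replicate 2 only 19 members passed, all of them higher, and without Tw2pos replicate 1 the count was 22, all higher.

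**Figure D2:**
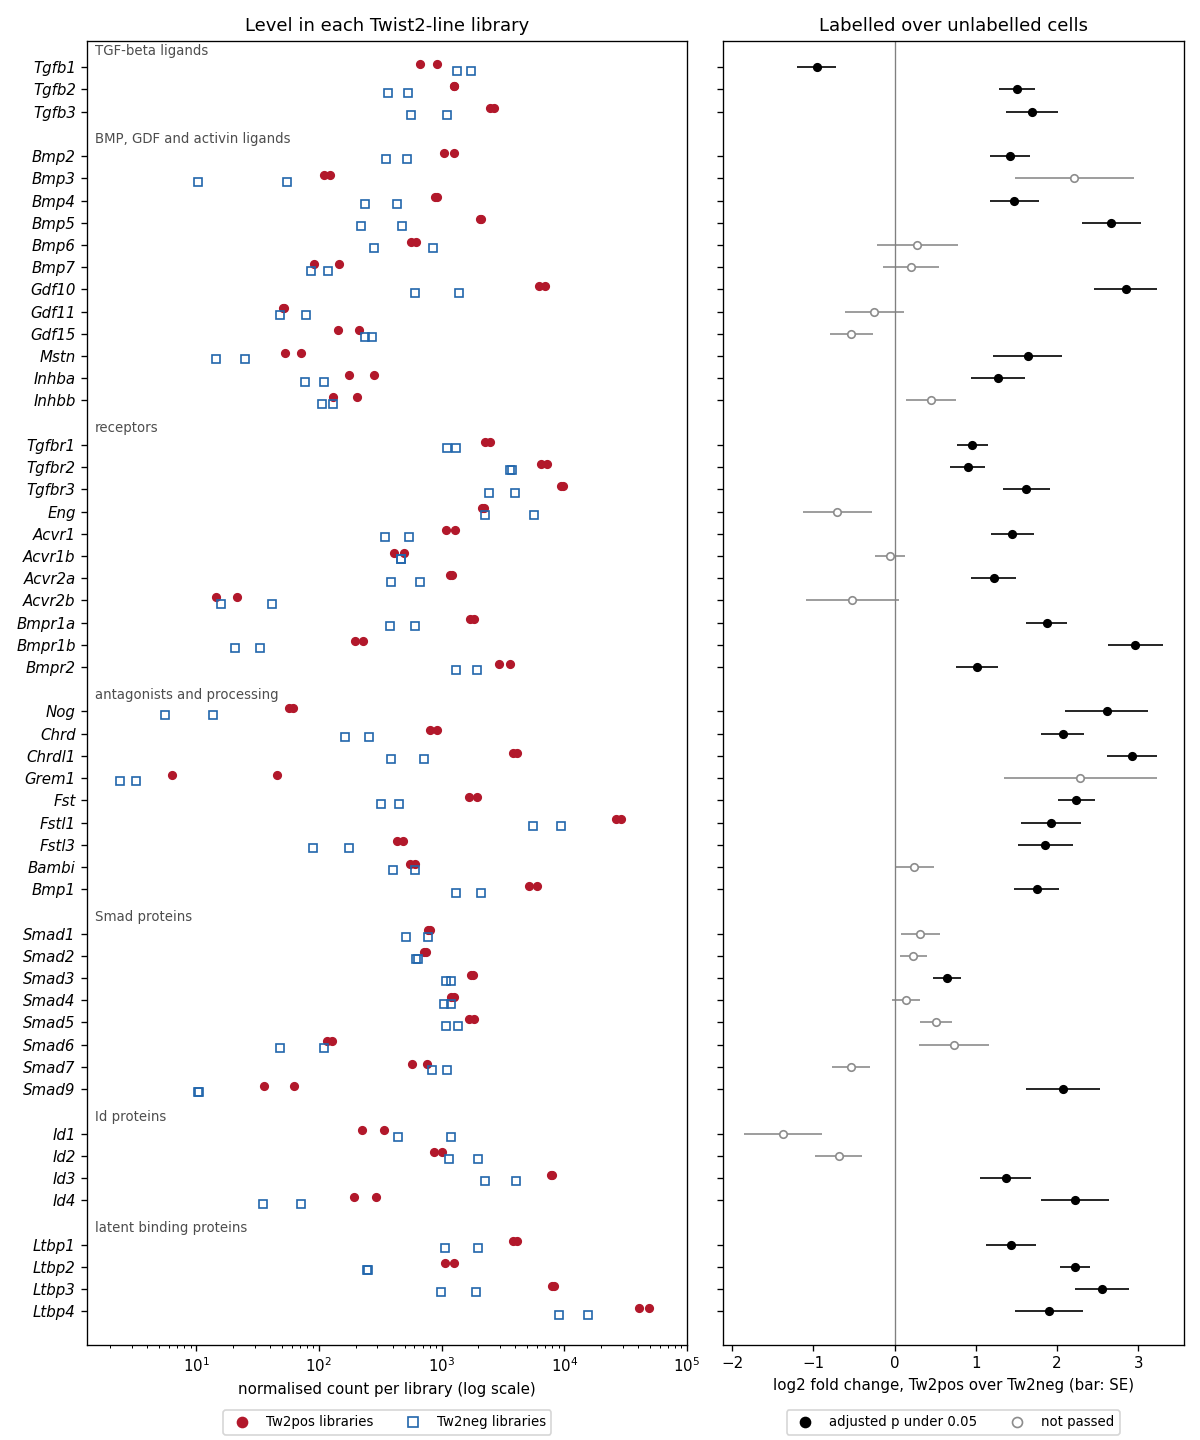
Left, normalised count of each of the 51 genes in every Twist2-line library (log scale), with Tw2pos libraries as filled circles and Tw2neg libraries as open squares, grouped by role. Right, log2 fold change of Tw2pos over Tw2neg with its standard error, filled where the limma adjusted p was under 0.05: points of the receptors, antagonists and latent binding proteins lie mainly right of 0, and those of the Smads cluster near it.

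The TGF-beta ligands parted, with Tgfb2 and Tgfb3 higher and Tgfb1 lower in the labelled cells. Tgfb1 (GRCm38 chromosome 7, 25687002 to 25705077, plus strand), the form that immune cells and platelets make in quantity, had 666 and 914 normalised counts in the Tw2pos libraries, against 1328 and 1736 in the Tw2neg libraries, that is a log2 change of −0.96 (SE 0.24, adjusted p = 0.0245). It was the only member to fall, and it did not pass without Tw2pos replicate 1, without Tw2pos replicate 2 or without Tw2neg replicate 2, or without the variance trend. Tgfb2 (chromosome 1, 186622792 to 186705989, minus strand) had 1259.6 and 1263 normalised counts in Tw2pos, against 534 and 369 in Tw2neg, a log2 change of 1.51 (SE 0.23, adjusted p = 0.00497). Tgfb3 (chromosome 12, 86056745 to 86079041, minus strand) had 2662 and 2479.7 in Tw2pos, against 1112 and 568 in Tw2neg, a log2 change of 1.69 (SE 0.33, adjusted p = 0.0112). No gene of the 3 had overlapping groups. The summed macrophage markers, of cells that express Tgfb1, were 2017 and 2668 normalised counts in Tw2pos, against 32254 and 37169.9 in Tw2neg, and their part in the Tgfb1 difference was not tested.

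The mix of the 3 forms also differed between fractions. Taken per kilobase of exon, Tgfb3 made up 69.2% and 64.7% of the TGF-beta transcripts in the Tw2pos libraries, against 48.1% and 29.2% in the Tw2neg libraries. Tgfb1 made up 11.6% and 16.0% in Tw2pos, against 38.5% and 59.8% in Tw2neg. In the Pax7 line Tgfb2 was the leading form of the labelled cells, at 52.3% in Pax7pos, against 16.3% in Pax7neg, where Tgfb1 led with 50.1%. The Tgfb1 share was at most 16.0% in the 3 labelled libraries and at least 38.5% in the 3 unlabelled ones.

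**Figure D3:**
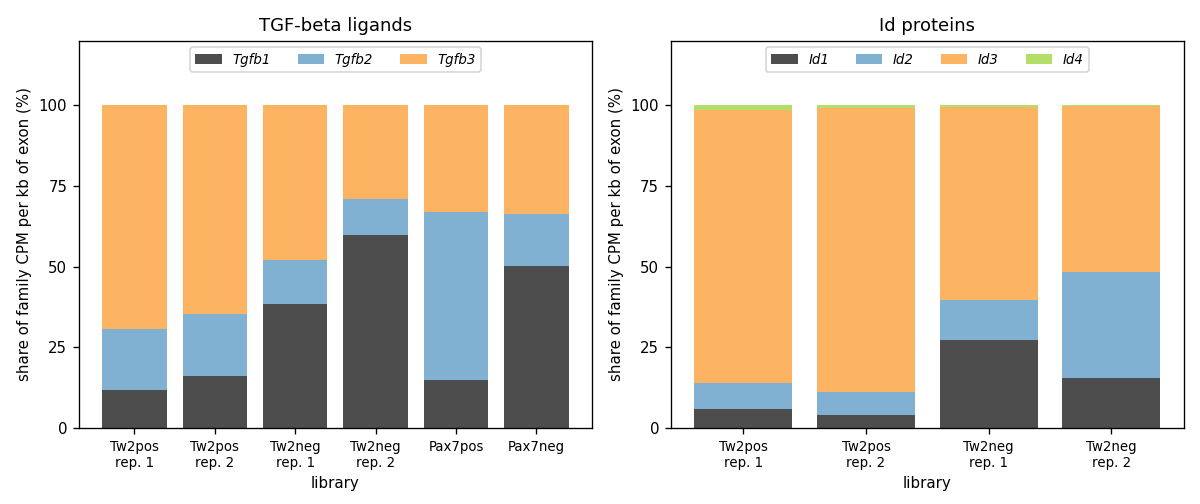
Share of each gene in the summed CPM per kilobase of exon of its family, in percent, for the TGF-beta ligands in all 6 libraries (left) and the Id genes in the 4 Twist2-line libraries (right). Tgfb3 leads in both Tw2pos libraries, Tgfb2 in Pax7pos and Tgfb1 in Pax7neg, and Id3 leads in all 4 Twist2-line libraries.

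Among BMP, GDF and activin ligands, 6 of 12 rose in Tw2pos and none fell. Gdf10 (chromosome 14, 33923587 to 33937983, plus strand), also called BMP3b, had the highest level of them per kilobase of exon, with 6939 and 6274 normalised counts in the Tw2pos libraries, against 1381 and 608 in the Tw2neg libraries, and had the largest change of the class, at 2.85 (SE 0.39, adjusted p = 0.00371). Bmp5 (chromosome 9, 75775364 to 75900310, plus strand), a ligand of skeletal and connective tissue, had 2070.4 and 2091 in Tw2pos, against 478 and 222 in Tw2neg, a log2 change of 2.67 (SE 0.36, adjusted p = 0.00361). For both genes each Tw2pos library was more than 4-fold above each Tw2neg library. Bmp2 and Bmp4, closely related ligands that drive bone formation, rose by smaller amounts: Bmp2 had 1052 and 1265 normalised counts in Tw2pos, against 520.5 and 355 in Tw2neg (log2 fold change 1.42), and Bmp4 had 889 and 912 in Tw2pos, against 438 and 238 in Tw2neg (1.48). Mstn, myostatin, the inhibitor of muscle growth, was scarce, with 71.4 and 53.1 normalised counts in Tw2pos, against 25.2 and 14.4 in Tw2neg (1.64, SE 0.43, adjusted p = 0.0285). The myofibre markers moved the same way, with 4 of 5 higher and none lower and sums of 429.6 and 710.4 in Tw2pos, against 203 and 119.9 in Tw2neg, and their part in the Mstn difference was not tested. Inhba, the activin A subunit, had 283 and 177 in Tw2pos, against 111 and 76.8 in Tw2neg (1.27, SE 0.34, adjusted p = 0.0294). The calls of Mstn and Inhba were lost without either Tw2pos library, without Tw2neg replicate 2, with library totals and without the filter on level.

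The other 6 ligands of this class did not pass. Bmp3, an antagonist-like BMP, had 122 and 111 normalised counts in Tw2pos, against 55.3 and 10.4 in Tw2neg, and missed the threshold (2.21, SE 0.73, adjusted p = 0.057). Its Tw2neg libraries lay far apart, and it passed as higher with DESeq2, with quantile normalization and without either Tw2neg library. Gdf15, a stress-induced ligand, had 144 and 211 in Tw2pos, against 269 and 238 in Tw2neg (−0.53, SE 0.26, adjusted p = 0.159), and passed as lower with library totals (−0.98, adjusted p = 0.0197). Inhbb, the activin B subunit, stood at 130.0 and 204 in Tw2pos and 132 and 107 in Tw2neg, and Bmp6, a BMP known for its control of hepcidin in liver, at 623 and 567 in Tw2pos and 854 and 279.9 in Tw2neg. Bmp7, a kidney and bone BMP, stood at 91.8 and 146 in Tw2pos and 118 and 85.5 in Tw2neg, and Gdf11, a close relative of myostatin, at 51 and 51.9 in Tw2pos and 48 and 78.4 in Tw2neg. The groups of these 4 overlapped, and Bmp6, Bmp7 and Gdf11 turned direction under at least 1 other setting. Bmp6 passed as higher without Tw2neg replicate 1 (1.08, adjusted p = 0.00757).

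Of the 11 receptors 8 rose and none fell. The highest per kilobase of exon in Tw2pos was Tgfbr3 (chromosome 5, 107106570 to 107289629, minus strand), betaglycan, the co-receptor that presents TGF-beta2 and inhibin, with 9702 and 9487 normalised counts in the Tw2pos libraries, against 3954 and 2456 in the Tw2neg libraries, that is a log2 change of 1.62 (SE 0.29, adjusted p = 0.0086). The signalling pair of TGF-beta changed by less than 2-fold: Tgfbr1, the type I receptor, had 2245 and 2481 in Tw2pos, against 1319 and 1116 in Tw2neg (0.96, SE 0.19, adjusted p = 0.0114), and Tgfbr2, the type II receptor, had 6416 and 7259 in Tw2pos, against 3719.6 and 3606 in Tw2neg (0.90, SE 0.21, adjusted p = 0.0207). Neither passed without Tw2pos replicate 1, without Tw2pos replicate 2 or with library totals, and Tgfbr2 also did not pass with quantile normalization. The BMP type I receptors changed more. Bmpr1b (chromosome 3, 141837136 to 142169425, minus strand), a receptor of cartilage condensations, had 228 and 198 normalised counts in Tw2pos, against 33.3 and 20.8 in Tw2neg, the largest change of all 51 genes at 2.96 (SE 0.34, adjusted p = 0.00235). Bmpr1a, the broadly expressed type I receptor, had 1849.9 and 1691 in Tw2pos, against 608 and 383 in Tw2neg (1.87, SE 0.26, adjusted p = 0.00377). Per kilobase of exon Bmpr1a was the higher of the pair, at 279 normalised counts per kb in Tw2pos and 78 in Tw2neg, beside 35.7 and 4.54 for Bmpr1b.

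Acvr1, the BMP and activin type I receptor mutated in the bone-forming disease fibrodysplasia ossificans progressiva, had 1084 and 1281 normalised counts in Tw2pos, against 540.0 and 343 in Tw2neg, a log2 change of 1.45 (SE 0.26, adjusted p = 0.00885). The type II receptors Acvr2a and Bmpr2 rose as well. Acvr2a had 1212 and 1166 normalised counts in Tw2pos, against 667 and 389 in Tw2neg (1.22, SE 0.28, adjusted p = 0.019). Bmpr2 had 2917 and 3617 in Tw2pos, against 1961 and 1311 in Tw2neg (1.02, SE 0.26, adjusted p = 0.026). Both calls were lost without either Tw2pos library, and that of Bmpr2 also with library totals and without the variance trend. Acvr1b, the activin type I receptor, had 412 and 497 in Tw2pos and 470.0 and 471 in Tw2neg, and Acvr2b, a myostatin receptor, had 21.7 and 14.5 in Tw2pos and 41.5 and 16 in Tw2neg. Their groups overlapped, and both turned direction under another setting. Eng (chromosome 2, 32646595 to 32682669, plus strand), endoglin, the co-receptor of endothelial cells, was the remaining gene without a call, with 2223 and 2132 normalised counts in Tw2pos, against 5626 and 2243 in Tw2neg (−0.71, SE 0.42, adjusted p = 0.23). Eng passed as lower with library totals (−1.155, adjusted p = 0.0419) and with a replicate block (−0.71, adjusted p = 0.0371). Without Tw2neg replicate 2 the log2 fold change of Eng was −1.37. The summed endothelial markers were 7756.5 and 5401 normalised counts in Tw2pos, against 35108 and 12353 in Tw2neg, with the higher Tw2neg value in the same replicate as for Eng, and their part in the Eng values was not tested.

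Secreted antagonists and processing genes had the highest median change of the 7 roles, 2.07 on the log2 scale, with 7 of 9 higher and none lower. Chrdl1 (chromosome X, 143285674 to 143394262, minus strand), a chordin-like BMP antagonist, had 4132 and 3861 normalised counts in the Tw2pos libraries, against 714 and 385 in the Tw2neg libraries, that is a log2 change of 2.93 (SE 0.31, adjusted p = 0.00186). Chrd, chordin itself, had 803 and 919 in Tw2pos, against 255 and 163 in Tw2neg (2.07, SE 0.26, adjusted p = 0.00311). Nog, noggin, which binds BMPs with high affinity, was rare, at 57.4 and 61.5 in Tw2pos, against 13.8 and 5.6 in Tw2neg (2.61, SE 0.51, adjusted p = 0.0118). All 3 BMP antagonists had each Tw2pos library at least 3-fold above each Tw2neg library. Fst (chromosome 13, 114452290 to 114458951, minus strand), follistatin, which neutralises activins and myostatin, had 1666 and 1955 normalised counts in Tw2pos, against 449.7 and 324 in Tw2neg (2.24, SE 0.22, adjusted p = 0.00162). Its relative Fstl3 had 434 and 482 in Tw2pos, against 175 and 90.3 in Tw2neg (1.85, SE 0.34, adjusted p = 0.00953). Fstl1 (chromosome 16, 37776873 to 37836514, plus strand), a secreted follistatin-like glycoprotein, had the highest level of the class per kilobase of exon, with 26262 and 28952 normalised counts in Tw2pos, against 9484 and 5548 in Tw2neg (1.93, SE 0.36, adjusted p = 0.0105), and its call was lost without Tw2pos replicate 2. Bmp1, which despite its name is the metalloprotease that cleaves chordin and procollagens, had 5196 and 6009 in Tw2pos, against 2104 and 1305 in Tw2neg (1.75, SE 0.28, adjusted p = 0.00586). The exceptions were Bambi, with overlapping groups at 557 and 613 in Tw2pos and 604 and 402 in Tw2neg, and Grem1, gremlin, with 6.37 and 45.8 in Tw2pos and 3.25 and 2.4 in Tw2neg, where 1 of the 2 Tw2pos libraries carried most of the counts. Bambi turned direction under other settings and passed as higher without Tw2neg replicate 1 (0.54, adjusted p = 0.04), and Grem1 passed as higher with DESeq2, with quantile normalization and without Tw2pos replicate 1.

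The sequences upstream of 3 genes that rose are shown, because sequences bound by Smads are known. Chrd and Fstl3 come from the role with the highest median change, and Id4 from the role whose members differ most among themselves. Smad3 and Smad4 bind CAGAC, which reads GTCTG on the other strand, and the BMP Smads can bind the GC-rich GGCGCC; capitals mark these letters wherever they occur. The sequences are from RefSeq on GRCm38.p6, on the strand of the gene. They end at the RefSeq start and were trimmed before any exon annotated in GENCODE. For Id4 the RefSeq start lies upstream of the GENCODE gene start at 48261228, so its sequence stops short of that start. Chrd lies at chr16:20732877-20733126 on the plus strand, Fstl3 at chr10:79777024-79777271 on the plus strand and Id4 at chr13:48260866-48261115 on the plus strand.
Chrd: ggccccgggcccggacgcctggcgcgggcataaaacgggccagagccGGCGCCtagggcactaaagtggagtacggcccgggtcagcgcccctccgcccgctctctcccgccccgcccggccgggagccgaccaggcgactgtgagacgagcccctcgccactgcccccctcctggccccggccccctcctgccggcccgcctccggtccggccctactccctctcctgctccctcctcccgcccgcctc
Fstl3: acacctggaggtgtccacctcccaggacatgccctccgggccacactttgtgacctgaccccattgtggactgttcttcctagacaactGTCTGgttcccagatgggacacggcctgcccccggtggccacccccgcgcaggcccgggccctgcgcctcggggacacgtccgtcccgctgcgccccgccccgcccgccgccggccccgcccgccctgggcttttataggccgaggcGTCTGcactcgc
Id4: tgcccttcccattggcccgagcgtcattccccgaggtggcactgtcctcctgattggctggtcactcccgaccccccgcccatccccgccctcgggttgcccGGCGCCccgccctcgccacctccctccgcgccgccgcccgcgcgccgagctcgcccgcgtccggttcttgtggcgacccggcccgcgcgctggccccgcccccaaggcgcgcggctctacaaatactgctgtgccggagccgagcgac

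Chrd and Id4 each hold GGCGCC at 1 place and no CAGAC on either strand, and Fstl3 holds CAGAC on the opposite strand at 2 places and no GGCGCC. Of the 51 genes 37 had a window of 250 bases upstream of a RefSeq start, of which 17 held CAGAC on either strand and 8 held GGCGCC. These windows were counted untrimmed, and some of them overlap an annotated exon. For some genes, such as Bmpr1b and Id2, the window lies inside the gene as annotated in GENCODE. Over 32851 windows of that length 42.2% held CAGAC on either strand and 9.59% held GGCGCC. These matches describe letters only, and no binding was measured.

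Of the 8 Smad proteins, which carry the signal into the nucleus, 2 rose and none fell. Smad3 (chromosome 9, 63646767 to 63757994, minus strand), the TGF-beta and activin Smad, had 1752 and 1813 normalised counts in the Tw2pos libraries, against 1082 and 1201 in the Tw2neg libraries, that is a log2 change of 0.64 (SE 0.17, adjusted p = 0.0304). That call was lost without either Tw2pos library, without the variance trend or with library totals. Smad9, the lowest of the Smads per kilobase of exon, had 35.7 and 62.7 in Tw2pos, against 10.6 and 10.4 in Tw2neg (2.07, SE 0.45, adjusted p = 0.0164), and did not pass without Tw2pos replicate 2. Smad5, another BMP Smad, had 1666 and 1826 in Tw2pos and 1368 and 1097 in Tw2neg (0.51, SE 0.19, adjusted p = 0.0832). Smad4, the shared partner and the highest Smad per kilobase of exon in both groups, had 1204 and 1272 in Tw2pos and 1048 and 1200.2 in Tw2neg. Smad1 had 773 and 803 in Tw2pos and 779.9 and 514 in Tw2neg, and Smad2 had 749.6 and 725 in Tw2pos and 620.5 and 638 in Tw2neg. The log2 fold changes of Smad1, Smad2 and Smad4 were 0.32, 0.23 and 0.14, did not pass, and turned negative with library totals. Without Tw2neg replicate 1 Smad1 (0.61, adjusted p = 0.0208) and Smad5 (0.67, adjusted p = 0.019) passed as higher. The inhibitory Smads did not pass and differed in sign. Smad6, which blocks BMP receptors, had 128 and 116 in Tw2pos and 111 and 48 in Tw2neg (0.73, SE 0.43, adjusted p = 0.225), while Smad7, which blocks TGF-beta receptors and is a TGF-beta target, had 571 and 761 in Tw2pos and 829 and 1099 in Tw2neg (−0.53, SE 0.23, adjusted p = 0.12). Without Tw2neg replicate 1 Smad6 passed as higher (1.32, adjusted p = 0.018) and Smad7 as lower (−0.74, adjusted p = 0.0491), and Smad7 passed as lower with library totals (−0.98, adjusted p = 0.0126).

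The Id genes, classical BMP targets, spread more widely than any other role, with an SD of 1.69 among their 4 log2 fold changes. Id3 (chromosome 4, 136143497 to 136145755, plus strand) had the highest level per kilobase of exon in all 4 libraries, with 7741 and 7908 normalised counts in the Tw2pos libraries, against 4046 and 2278 in the Tw2neg libraries (1.37, SE 0.31, adjusted p = 0.0194). Id4, best known in neural tissue, had 292 and 193 in Tw2pos, against 71.6 and 35.2 in Tw2neg (2.22, SE 0.42, adjusted p = 0.0104), and did not pass without Tw2pos replicate 1. Id1, whose transcripts are abundant in endothelium, had 340.4 and 227 in Tw2pos and 1192 and 439.8 in Tw2neg, and Id2 had 1014 and 867 in Tw2pos and 1156 and 1980.5 in Tw2neg. Both Tw2pos values lay below both Tw2neg values for Id1 and Id2, yet neither passed, at −1.38 (SE 0.48, adjusted p = 0.0659) for Id1 and −0.69 (SE 0.28, adjusted p = 0.103) for Id2. Id1 passed as lower with DESeq2 (−1.51, adjusted p = 0.00333), with library totals and with a replicate block (adjusted p = 4.71e-05). It also passed as lower in the limma fit of all 6 libraries over the CPM table (−1.33, adjusted p = 0.0357). Without Tw2neg replicate 2 the log2 fold change of Id1 was −2.10. Id2 passed as lower with library totals (−1.14, adjusted p = 0.017) and with the replicate block (−0.69, adjusted p = 0.0211). Without Tw2neg replicate 1 the log2 fold change of Id2 was −1.08. Id3 did not pass without Tw2pos replicate 1, without Tw2pos replicate 2 or with quantile normalization. Per kilobase of exon Id3 made up 84.6% and 88.0% of the Id transcripts in Tw2pos, against 59.8% and 51.4% in Tw2neg. Id1 made up 5.75% and 3.90% in Tw2pos, against 27.2% and 15.3% in Tw2neg.

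All 4 latent TGF-beta binding proteins, a family of microfibril-associated proteins most of which tether latent TGF-beta, rose in the labelled cells. Ltbp4 (chromosome 7, 27305136 to 27337692, minus strand) had the highest level of all 51 genes per kilobase of exon, with 40363 and 49105 normalised counts in the Tw2pos libraries, against 15529 and 9126 in the Tw2neg libraries (1.90, SE 0.42, adjusted p = 0.0171); it did not pass without Tw2pos replicate 1, without Tw2pos replicate 2 or with quantile normalization. Ltbp3 (chromosome 19, 5740904 to 5758532, plus strand) had the largest change of the class, with 7940.0 and 8256 in Tw2pos, against 1927 and 985 in Tw2neg (2.55, SE 0.34, adjusted p = 0.00342). Ltbp2, which binds microfibrils but not latent TGF-beta, had 1074 and 1275 in Tw2pos, against 247 and 253 in Tw2neg, and the smallest adjusted p of the 51 (2.22, SE 0.18, adjusted p = 0.000896). Ltbp1 had 3798 and 4107 in Tw2pos, against 1992 and 1072 in Tw2neg (1.43, SE 0.31, adjusted p = 0.0166), and its call was lost without Tw2pos replicate 2. Per kilobase of exon the 3 highest genes of the pathway in Tw2pos were Ltbp4 at 6922, Fstl1 at 5618 and Id3 at 4369 normalised counts per kb, and in Tw2neg they were Ltbp4 at 1907, Id3 at 1765 and Fstl1 at 1529.5.

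Within Tw2neg the 2 libraries did not carry these genes alike. Of the 31 genes higher in Tw2pos, 29 had the higher Tw2neg value in replicate 1, as had 42 of all 51 genes and 49.6% of all genes tested. The summed fibro-adipogenic progenitor markers stood at 282713.5 normalised counts in Tw2neg replicate 1 and 197781.5 in replicate 2, and the tendon markers at 71751 and 31182, and their part in this was not tested. Exons of 14 members overlap an annotated gene on the opposite strand, among them Tgfb2, Tgfb3, Bmp4, Bmp5, Eng, Chrd, Fst, Ltbp2 and Ltbp3, and exons of 2 overlap one on the same strand, Tgfbr3 and Smad5. No source used here states the strand, so reads of such partners cannot be told apart from those of the member.

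Tw2pos was next set against Pax7pos, the comparison of Twist2- and Pax7-lineage cells named in the series' design. A few ligands and antagonists set Tw2pos far apart from Pax7pos while 5 of the 7 receptors and all 3 Id genes tested did not differ past the threshold in the limma fit. Of the 32 members in the CPM table, 11 were higher in Tw2pos, 3 were lower and 18 did not pass (limma over 4939 genes, in which the lone Pax7pos library is assumed to vary like the Twist2 libraries). Among all genes of the CPM file 58.8% passed, 33.7% as higher and 25.1% as lower, and the median log2 fold change was 0.46 over the members and 0.41 over all genes. DESeq2 split the members into 8 higher and 7 lower and TMM scaling into 9 higher and 7 lower, with medians of all genes of 0.02 and 0.13; Tgfb2, Smad1, Smad5 and Id1 passed as lower in both. Without Tw2neg replicate 1 or without Tw2neg replicate 2, which enter here only through the estimate of spread, 22 members passed, without Tw2pos replicate 1 only 8, without Tw2pos replicate 2 only 9, and with quantile normalization 9.

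**Figure D4:**
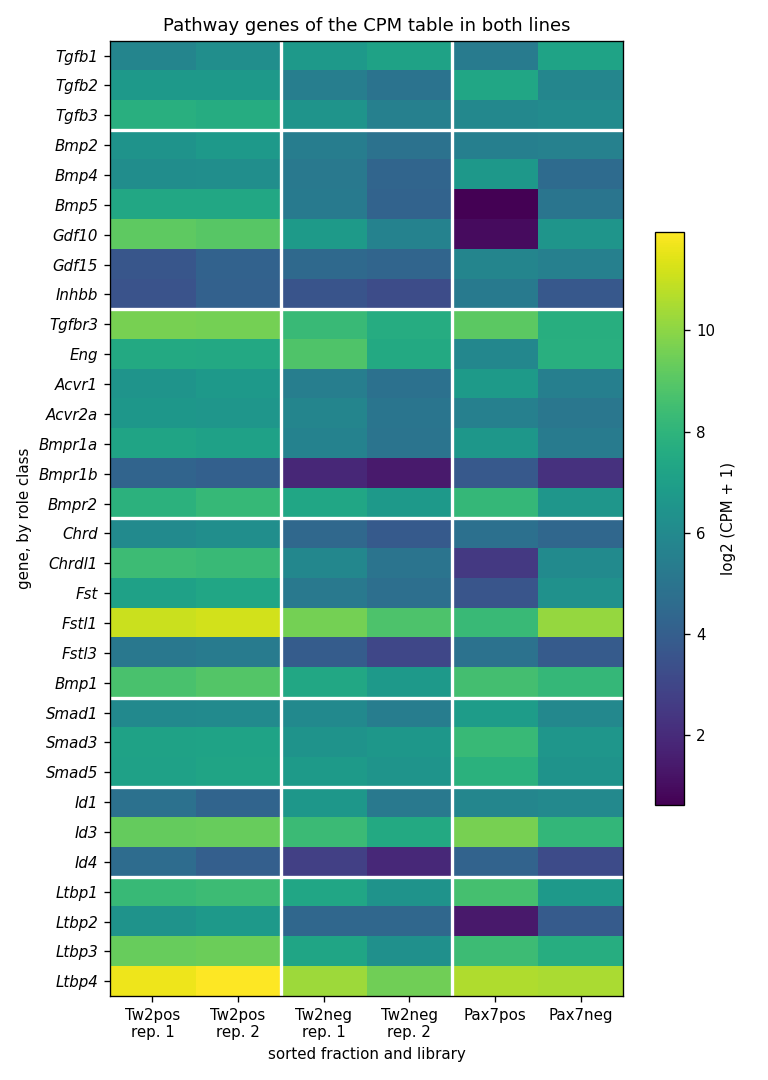
Level of the 32 genes of the CPM table as log2 (CPM + 1) in each library, rows grouped by role, columns by sorted fraction. Bmp5, Gdf10, Chrdl1 and Ltbp2 are dark in the Pax7pos column and brighter in the other 5 columns.

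The largest differences were in secreted proteins. Gdf10 had 560.5 and 507 CPM in the Tw2pos libraries, against 0.94 CPM in Pax7pos, where it rested on 9 reads (log2 fold change 8.11, SE 0.47, adjusted p = 2.79e-05). Bmp5 had 167 and 169 CPM in Tw2pos, against 0.522 CPM and 5 reads in Pax7pos (6.79, SE 0.46, adjusted p = 4.28e-05). Of the antagonists Chrdl1 had 334 and 312 CPM in Tw2pos, against 4.7 CPM in Pax7pos (5.83, SE 0.41, adjusted p = 4.59e-05), and Fst had 135 and 158 CPM in Tw2pos, against 11 CPM in Pax7pos (3.62, SE 0.34, adjusted p = 0.000171). Of these 4 genes Fst had the highest level in Pax7pos. Fstl1 had 2121 and 2339 CPM in Tw2pos, against 312 CPM in Pax7pos (2.83, SE 0.45, adjusted p = 0.00172), and Ltbp2 had 86.7 and 103 CPM in Tw2pos, against 1.57 CPM and 15 reads in Pax7pos (5.22, SE 0.34, adjusted p = 4.09e-05). Tgfb3 had 215 and 200.3 CPM in Tw2pos, against 59.1 CPM in Pax7pos (1.79, SE 0.42, adjusted p = 0.00851). Each of these 7 genes kept its call under every alternative tried. Fitted changes of genes with so few reads in Pax7pos depend on the value of 1 added to the CPM, and for Bmp5 they ran between 4.08 and 8.30 over the alternatives.

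Smaller rises were those of Eng, with 179.6 and 172 CPM in Tw2pos, against 57.8 CPM in Pax7pos (1.59, SE 0.51, adjusted p = 0.029), Chrd, with 64.9 and 74.2 CPM in Tw2pos, against 26.5 CPM in Pax7pos (1.35, SE 0.38, adjusted p = 0.0169), Bmp2, with 85 and 102 CPM in Tw2pos, against 43.9 CPM in Pax7pos (1.07, SE 0.36, adjusted p = 0.0328), and Acvr2a (1.03, SE 0.39, adjusted p = 0.0497). Chrd, Bmp2 and Acvr2a did not pass without either Tw2pos library, with quantile normalization or with DESeq2, Bmp2 and Acvr2a also not with TMM factors, and Acvr2a also not with edgeR, without the variance trend or with pseudocount 10, and Eng did not pass with quantile normalization. In the other direction, Gdf15 had 11.6 and 17.1 CPM in the Tw2pos libraries, against 53.3 CPM in Pax7pos (−1.84, SE 0.37, adjusted p = 0.00462). Inhbb had 10.5 and 16.5 CPM in Tw2pos, against 36.5 CPM in Pax7pos (−1.40, SE 0.42, adjusted p = 0.0218). Smad3 had 142 and 146 CPM in Tw2pos, against 305 CPM in Pax7pos (−1.08, SE 0.30, adjusted p = 0.0165). Without Tw2pos replicate 1 none of these 3 passed, and without Tw2pos replicate 2 only Gdf15 did.

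Several genes that rose in Tw2pos over Tw2neg did not pass between the labelled cells. Both comparisons use the Tw2pos libraries, so they are not independent. Id3 had 625 and 639 CPM in Tw2pos and 798 CPM in Pax7pos, Ltbp1 had 307 and 332 CPM in Tw2pos and 394 CPM in Pax7pos, and Tgfb2 had 102 and 102 CPM in Tw2pos and 160.3 CPM in Pax7pos. Bmp4 had 71.8 and 73.7 CPM in Tw2pos and 100 CPM in Pax7pos, and Bmpr1b had 18.4 and 16 CPM in Tw2pos and 12.7 CPM in Pax7pos. Tgfbr3 had 784 and 766 CPM in Tw2pos and 538 CPM in Pax7pos, Bmpr1a had 149 and 137 CPM in Tw2pos and 95.5 CPM in Pax7pos, and Bmpr2 had 236 and 292 CPM in Tw2pos and 285 CPM in Pax7pos. Acvr1 had 87.5 and 104 CPM in Tw2pos and 109 CPM in Pax7pos, Id4 had 23.6 and 15.6 CPM in Tw2pos and 17.4 CPM in Pax7pos, Bmp1 had 419.7 and 486 CPM in Tw2pos and 374 CPM in Pax7pos, and Fstl3 had 35 and 39 CPM in Tw2pos and 28.1 CPM in Pax7pos. Adjusted p over these 12 genes was between 0.132 and 0.828 in the limma fit, which does not show that the levels are equal. Ltbp4, at 3260.3 and 3967 CPM in Tw2pos and 1556 CPM in Pax7pos (1.21, SE 0.50, adjusted p = 0.0699), and Ltbp3, at 641 and 667 CPM in Tw2pos and 338 CPM in Pax7pos (0.95, SE 0.43, adjusted p = 0.0911), came nearer the threshold. Tgfb1, lower in Tw2pos than in Tw2neg, had 53.8 and 73.9 CPM in Tw2pos and 39.5 CPM in Pax7pos (0.66, SE 0.35, adjusted p = 0.134). Neither comparison passed in its main fit for Smad1, Smad5 and Id1. Of these Id1 had 27.5 and 18.3 CPM in Tw2pos and 55.8 CPM in Pax7pos (−1.27, SE 0.57, adjusted p = 0.0854). Against Tw2neg, Id1 passed as lower in the limma fit of 6 libraries (−1.33, adjusted p = 0.0357). Tgfb2 was called lower in Tw2pos by DESeq2 (−1.14, adjusted p = 0.00968) and by TMM factors (−0.98, adjusted p = 0.0277), and without either Tw2neg library Tgfb2, Smad1, Smad5 and Id1 passed as lower and Tgfb1, Bmpr1a, Ltbp3 and Ltbp4 as higher.

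The same CPM values describe labelled against unlabelled cells within the Pax7 line, where 1 library a group allows no test. On the log2 (CPM + 10) scale 0 of the 32 members were 4-fold higher and 3 were 4-fold lower in Pax7pos, beside 3.83% and 14.6% of the genes of the table. The 3 were Gdf10, with 0.94 CPM in Pax7pos, against 91.2 CPM in Pax7neg (difference −3.21), Chrdl1, with 4.7 CPM in Pax7pos, against 64.9 CPM in Pax7neg (−2.35), and Fst, with 11 CPM in Pax7pos, against 80.6 CPM in Pax7neg (−2.11). Bmp5, with 0.522 CPM in Pax7pos, against 31.8 CPM in Pax7neg, lay just short of the limit at −1.99. Adding 10 to each CPM shrinks the difference of a gene this low. Past 2-fold, 11 of the 32 members were higher in Pax7pos and 8 lower, beside 18.3% and 33.0% of the genes of the table. Ltbp1 had the largest difference upward, with 394 CPM in Pax7pos, against 106 CPM in Pax7neg (1.80), followed by Bmp4 with 100 CPM in Pax7pos, against 22.8 CPM in Pax7neg (1.75), and Smad3 with 305 CPM in Pax7pos, against 93.9 CPM in Pax7neg (difference 1.602). Tgfb1 was lower, with 39.5 CPM in Pax7pos, against 146 CPM in Pax7neg (−1.66), as was Eng, with 57.8 CPM in Pax7pos, against 219 CPM in Pax7neg (−1.76). The macrophage markers summed to 108 CPM in Pax7pos, against 3172 CPM in Pax7neg, and the endothelial markers to 146 CPM in Pax7pos, against 1024 CPM in Pax7neg, and their part in these 2 differences was not tested. The median difference was 0.49 over the members and −0.43 over all genes of the table.

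The difference between labelled and unlabelled cells was then compared between the 2 lines. The test was of the difference of the differences, Tw2pos minus Tw2neg less Pax7pos minus Pax7neg. It passed for 9 of 32 members, all with the larger value in the Twist2 line, beside 35.7% of all genes of the table, 23.2% in that direction and 12.5% in the other. They were Gdf10 (8.41, SE 0.67, adjusted p = 0.000164), Bmp5 (7.07, SE 0.65, adjusted p = 0.00026), the antagonists Chrdl1 (6.44, SE 0.57, adjusted p = 0.000228), Fst (4.99, SE 0.49, adjusted p = 0.000325) and Chrd (1.65, SE 0.54, adjusted p = 0.0458), Fstl1 (3.81, SE 0.64, adjusted p = 0.00369), the latent binding proteins Ltbp2 (4.69, SE 0.49, adjusted p = 0.000424) and Ltbp3 (1.84, SE 0.61, adjusted p = 0.0497), and Tgfb3 (1.84, SE 0.60, adjusted p = 0.0455). Gdf10, Bmp5, Chrdl1, Fst, Fstl1 and Ltbp2 were higher in both Tw2pos libraries than in both Tw2neg libraries and lower in Pax7pos than in Pax7neg. Chrd, Ltbp3 and Tgfb3 passed narrowly, and each lost its call with DESeq2, edgeR, TMM factors, quantile normalization, no variance trend and without either Tw2pos library. DESeq2 split the members into 6 higher and 4 lower, the lower ones being Smad1, Smad3, Smad5 and Id1, and TMM factors into 6 higher and 2 lower, with medians of all genes of −0.21 and −0.03, against 0.37 with the deposited scaling. Without Tw2neg replicate 1 the members passing numbered 19, 18 of them higher, and without Tw2neg replicate 2 also 19, 13 of them higher.

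**Figure D5:**
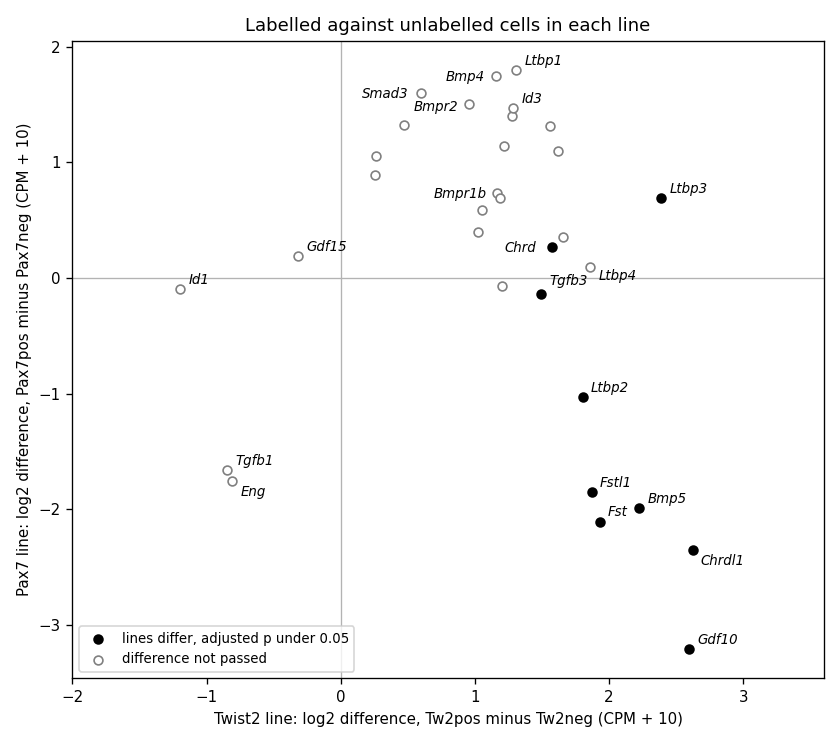
Log2 difference of CPM + 10 between labelled and unlabelled cells in the Twist2 line (x axis, means of 2 libraries a group) and in the Pax7 line (y axis, 1 library a group) for 32 genes, filled where the limma test of the difference between the lines passed. Ltbp2, Fstl1, Fst, Bmp5, Chrdl1 and Gdf10 lie at the lower right, and Tgfb1 and Eng lie below 0 on both axes.

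The unlabelled cells of the 2 lines were also compared, as the background of each labelled fraction. None of the 32 members passed between Tw2neg and Pax7neg (limma, lowest adjusted p 0.149), beside 0.0607% of all genes of the table, or 3 genes, all higher in Tw2neg. At an unadjusted p under 0.05 there were 3 members and 769 genes, and edgeR and DESeq2 passed 0 members each. Log2 fold changes of the members ran between −1.37 and 0.53. The lowest was that of Fst, with 36.1 and 25.9 CPM in the Tw2neg libraries, against 80.6 CPM in Pax7neg. Without Tw2neg replicate 1 the count was 11 members, all lower in Tw2neg, and without Tw2neg replicate 2 it was 2, Fst lower and Eng higher.

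Beyond the 51 genes, 77 further genes of the family were looked at, of which 52 had enough counts in the Twist2 line. Of these 28 rose in Tw2pos, 2 fell and 22 did not pass, with a median log2 fold change of 1.24. Of all genes tested 38.6% passed, 18.7% as higher and 20.0% as lower, with a median of −0.04. Ctgf, a matrix-associated target of TGF-beta, had 23709 and 25977 normalised counts in the Tw2pos libraries, against 4743 and 2623 in the Tw2neg libraries (2.81, SE 0.35, adjusted p = 0.00296), as 1 of 6 among 9 target genes that rose. The largest rise of the targets was that of Col1a1, the collagen type I chain that is also on the list of fibro-adipogenic progenitor markers, with 301492 and 350942 in Tw2pos, against 67565 and 31243 in Tw2neg (2.82, SE 0.84, adjusted p = 0.0416). Its call was lost in 7 of 16 alternatives, among them leaving out any 1 of the 4 libraries, and quantile normalization took its change to 0.94. Fbn2, fibrillin 2, a microfibril protein to which latent complexes attach, had 1068 and 984 in Tw2pos, against 118 and 58.4 in Tw2neg (3.61, SE 0.35, adjusted p = 0.00143). Among 16 further antagonists and modulators 10 rose and 2 fell, with the largest rise for Tll2, a relative of Bmp1 (2.99, SE 0.47, adjusted p = 0.00583). Both that fell are named here: Nrros, which anchors latent TGF-beta1 on macrophages and microglia, had 76.5 and 102 in Tw2pos, against 1234 and 1989 in Tw2neg (−4.13, SE 0.29, adjusted p = 0.000574), and Chrdl2, another chordin-like protein, changed by −1.35 (SE 0.38, adjusted p = 0.0357). The macrophage markers given beside Tgfb1 moved the same way as Nrros, and their part in its fall was not tested. Inha, the inhibin alpha subunit, led the 3 of 5 further ligands that rose (2.18, SE 0.49, adjusted p = 0.0183), and Rgma, a BMP co-receptor, the 2 of 4 receptors (1.63, SE 0.40, adjusted p = 0.0238). Of 13 intracellular regulators 4 rose, led by Ldlrad4, an inhibitor of TGF-beta signalling (1.46, SE 0.21, adjusted p = 0.00449). Without Tw2pos replicate 1 or without Tw2pos replicate 2 the count of the 52 that passed was 17.

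Between the labelled cells, 33 of the 77 genes could be tested, with 19 higher and 6 lower in Tw2pos. Among all genes tested in that comparison, 58.8% passed, 33.7% as higher and 25.1% as lower. Tgfbi, a matrix protein induced by TGF-beta, had 1339 and 1675 CPM in Tw2pos, against 52.3 CPM in Pax7pos (4.81, SE 0.37, adjusted p = 6.37e-05), and Col1a1, the largest rise of the targets here too, had 24353 and 28354 CPM in Tw2pos, against 875 CPM in Pax7pos (4.91, SE 0.71, adjusted p = 0.00117). Fbn2 was also higher in Tw2pos (5.29, SE 0.46, adjusted p = 0.00011), as were Ldlrad4 (2.95, SE 0.35, adjusted p = 0.000468) and Acvrl1, the type I receptor known as ALK1 (2.88, SE 0.42, adjusted p = 0.00115). Of the intracellular regulators 5 of 7 were lower in Tw2pos and 2 higher, with the largest fall for Runx1, a transcription factor that partners Smads, at 122 and 143 CPM in Tw2pos, against 1309 CPM in Pax7pos (−3.30, SE 0.34, adjusted p = 0.000227). Hey1, a target shared by BMP and Notch, had 13.7 and 8.57 CPM in Tw2pos, against 78.9 CPM in Pax7pos (−2.75, SE 0.55, adjusted p = 0.0044). Between Tw2neg and Pax7neg none of the 33 passed, beside 0.0607% of all genes of the CPM table.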

How the data were processed

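RNA of 6 sorted libraries was measured by sequencing. The submitters' processing notes name TopHat2 2.0.0, DESeq2 1.6.3 and GRCm38 (mm10); no source used here states the counting tool, annotation or strand. The Twist2-line table holds size-factor-normalised counts (a signal scale), per the file headers, and the deposited CPM table holds both lines, with CPM scaled to an effective library size and log2 ratios of CPM + 1 by the authors. Every value tested was a whole multiple of 1 read within 0.01 (100%), so reads were recovered, and CPM per Twist2-line library was computed from them. Unless another method or setting is named beside them, p-values are from 2 fits in limma 3.58.1 (R 4.3.3) with a variance trend. The first used log2 (normalised count + 1) of 4 libraries and kept genes whose average reached 10. The second used log2 (CPM + 1) of 6 libraries and kept genes whose average reached 1 CPM. Both had Benjamini-Hochberg adjustment over all genes and a threshold of 0.05. Each fit had 2 residual degrees of freedom, with 4 prior degrees in the first and 5.71 in the second. Fold changes on the log2 scale with 1 added understate changes of low genes. The Pax7 line has 1 library a group, so its own difference is a value with no test. Alternatives were other pseudocounts, filters and scalings, edgeR 4.0.16, DESeq2 1.42.0, a replicate block and leaving out each Twist2-line library; scripts were tested on simulated data. Members and lists were chosen with earlier results of these data known. All 51 members are accounted for, with library values for the highest member of each role, the largest changes and the members whose call differed between comparisons; of the 77 further genes the largest change in each direction per sublist is named, except 1 that is not reported here, and the alternatives for these were added after seeing the data. Gene positions are from GENCODE M21 on GRCm38.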

Additional observations from a re-analysis of the deposited data

Results flagged for a closer look

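The difference between labelled and unlabelled cells was not the same in the Twist2 and the Pax7 line for 9 genes, by the limma test of the difference itself (adjusted p under 0.05, n = 2 libraries a group in the Twist2 line and 1 in the Pax7 line). The log2 difference, Twist2 line minus Pax7 line, was 8.41 for Gdf10 (adjusted p = 0.000164), 7.07 for Bmp5 (adjusted p = 0.00026), 6.44 for Chrdl1 (adjusted p = 0.000228), 4.99 for Fst (adjusted p = 0.000325), 4.69 for Ltbp2 (adjusted p = 0.000424) and 3.81 for Fstl1 (adjusted p = 0.00369). It was 1.84 for Tgfb3 (adjusted p = 0.0455), 1.84 for Ltbp3 (adjusted p = 0.0497) and 1.65 for Chrd (adjusted p = 0.0458). Gdf10, Bmp5 and Chrdl1 had 9, 5 and 45 reads in the labelled cells of the Pax7 line. The spread of the Pax7 line was not measured, since it has 1 library a group.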

How the results depend on the processing

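Over the alternatives tried, 18 of 32 member calls between Tw2pos and Tw2neg, 7 of 14 between Tw2pos and Pax7pos and 6 of 9 between the lines were kept in every one. Member counts without 1 library ran from 19 to 40 between Tw2pos and Tw2neg, from 8 to 22 between Tw2pos and Pax7pos (9 with quantile normalization), from 0 to 11 between Tw2neg and Pax7neg and from 6 to 19 for the difference between the lines. Counts over all genes without 1 library ran from 2578 to 7370 (5470 with all libraries, 3097 in the 6-library fit), from 1658 to 3817 between Tw2pos and Pax7pos (2905 with all, 1501 with a mean of at least 50, 1860 with quantile normalization), from 47 to 1049 between Tw2neg and Pax7neg and from 952 to 3173 for the difference (1764 with all, 979 with a mean of at least 50, 962 with quantile normalization). Between Tw2neg and Pax7neg, against 3 genes, DESeq2 passed 253, TMM factors 60, edgeR 0, a mean of at least 50 left 18, pseudocount 0.5 gave 12, and no variance trend, pseudocount 10 and quantile normalization gave 1 each. In the Pax7 line 6 members passed 4-fold with pseudocount 1, 1 with pseudocount 25, and 19 passed 2-fold. The further genes passing between Tw2pos and Tw2neg numbered 17 to 31 without 1 library. The cause of these changes was not tested.

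In the limma comparisons that include the Pax7 line, signs were followed only for members that had passed. Turns of the other members were not looked for there. Between Tw2pos and Tw2neg all members were followed, and signs turned only for members that had not passed. With library totals the log2 fold change was −0.17 for Bmp6, −0.24 for Bmp7, −0.20 for Bambi, −0.13 for Smad1, −0.22 for Smad2 and −0.31 for Smad4, and with quantile normalization 0.15 for Gdf11 and 0.037 for Acvr1b. Without 1 library it ran from −0.52 to 1.08 for Bmp6, from −0.13 to 0.53 for Bmp7, from −0.60 to 0.10 for Gdf11, from −0.19 to 0.079 for Acvr1b, from −1.18 to 0.14 for Acvr2b and from −0.048 to 0.54 for Bambi. Chrdl2 and Rgma, of the further genes, did not pass without either Tw2pos library, without the filter on level or without the variance trend, Inha did not pass without Tw2pos replicate 1, and Col1a1 did not pass in 7 of 16 alternatives.

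Replicate numbers give only 2 pairs and no label ties them to an animal or day; deviations of same-numbered libraries correlated with r = 0.263 across 14155 genes, which are not independent. With the replicate block 37 members passed between Tw2pos and Tw2neg, 15 between Tw2pos and Pax7pos, 1 (Fst) between Tw2neg and Pax7neg with 305 genes, and 11 for the difference between the lines.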
